A study of Mus musculus with 2 samples.

Results

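The 55 genes described here encode the receptors for serotonin, dopamine, noradrenaline, acetylcholine, histamine and cannabinoids. They are the protein-coding genes whose symbol starts with Htr, Drd, Adra, Adrb, Chrm or Hrh followed by a digit, or with Chrn, together with Cnr1 and Cnr2. The rule uses symbols only and no measured value, and it took 55 of 22028 protein-coding genes and of 55536 gene entries in all. Of the symbols that match it, 1 was not protein coding, the antisense RNA Chrna1os, and was left out. Ribosome-depleted total RNA had been sequenced from the left cerebral cortex of adult male mice of the strain B6CASTF1/J, a hybrid of B6 and Cast, at 8 to 10 months of age. There was 1 group of 2 animals, numbered 2 (replicate 1) and 4 (replicate 2) in the labels, with 1 library each and no treatment or second genotype named. The donor label is the same in both libraries, and the animal numbers alone say that the mice were separate. With 1 group the design compares no condition, and what can be compared is the receptors with each other and 1 animal with the other.

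Serotonin, dopamine, noradrenaline and histamine reach the cortex in axons of neurons whose cell bodies lie in the brainstem, midbrain and hypothalamus, and acetylcholine comes mainly from the basal forebrain. Most of their receptors are G protein-coupled: those that act through Gq raise calcium, those that act through Gs raise cyclic AMP, and those that act through Gi or Go lower it and often sit on the transmitter's own axons. The nicotinic acetylcholine receptors and the serotonin receptor subunits Htr3a and Htr3b are instead ion channels made of several subunits. Endocannabinoids run the other way, from the receiving neuron back to Cnr1 on the axon terminal, where they lower transmitter release.

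Levels are given as TPM, which are normalised for transcript length and library, so that genes can be compared with each other. Paired values are those of replicate 1 and replicate 2, and ± marks the SD over the 2 animals (n = 2). A gene was counted as different between the animals past 1.5-fold on scaled counts, which 3.58% of all genes tested were. Libraries held 24688669 and 27440152 counts, so that 3 counts, the limit that a count of 0 allows, correspond to 0.122 and 0.109 CPM (counts scaled to the library). The receptors took 31441 and 34165 of these counts, which is 0.127% and 0.125%. In bulk tissue, fewer cells of a type and less RNA per cell cannot be told apart. Neuronal markers were high, with the 5 pan-neuronal genes summing to 2924 and 3113 TPM and the 5 excitatory neuron genes to 2120 and 2239 TPM. All 8 markers of striatal projection neurons were present as well, between 17.5 TPM (Rarb) and 272.7 TPM (Ppp1r1b) on average, and summed to 795 and 855 TPM. Choroid plexus markers summed to 751 TPM in replicate 1 and 8.99 TPM in replicate 2. Striated muscle markers summed to 11.7 and 37.0 TPM, and immediate early genes to 514 and 214 TPM.

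Of the 55 receptor genes, 34 (61.8%) reached 1 TPM in both animals, against 12994 of 22028 protein-coding genes (59.0%). Fewer reached 10 TPM in both, 16 receptors (29.1%) against 8118 protein-coding genes (36.9%). The median receptor stood at 3.23 TPM and the median protein-coding gene at 4.02 TPM. Among genes with at least 1 TPM in both animals, the medians were 10.7 TPM for the receptors and 16.2 TPM for protein-coding genes. Transcript was concentrated in a few members: the 2 highest, Chrm1 and Cnr1, held 24.3% of the summed receptor TPM, the 5 highest 45.4% and the 10 highest 65.4%. At the other end, 6 members had no counts in either library: the nicotinic subunits Chrna9, Chrnd and Chrng, the serotonin receptors Htr2b and Htr3b, and the histamine receptor Hrh4. A second quantification by the authors, made from the reads rather than from alignments, placed traces in Chrnd and Htr3b, at most 0.151 TPM once rescaled to the first. When the 55 genes were ordered by mean level, 13 of the 54 neighbouring pairs did not overlap between the animals and 41 did.

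**Figure D1:**
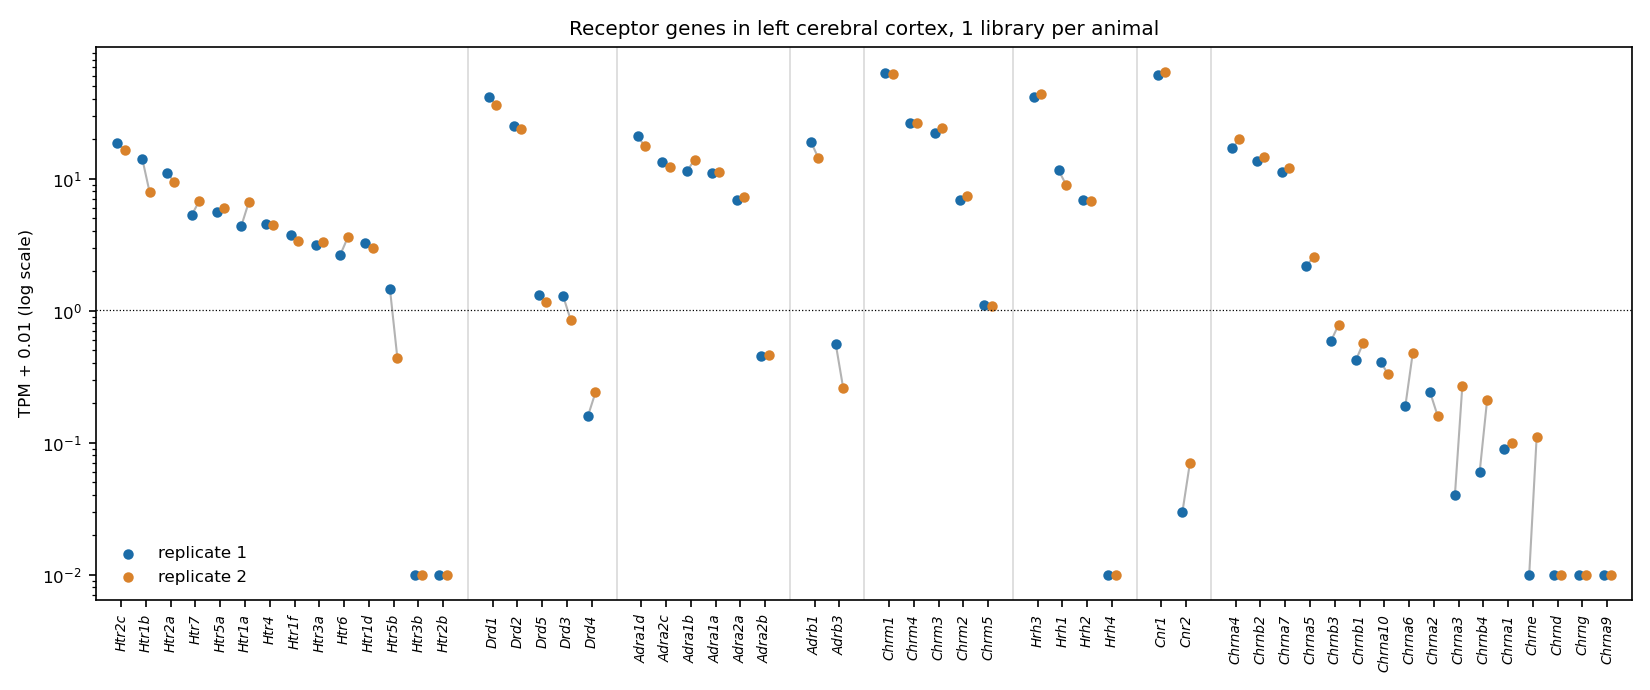
Level of 54 of the 55 receptor genes in replicate 1 (blue, left) and replicate 2 (orange, right), as TPM + 0.01 on a log scale, grouped by family and ordered by mean; the dotted line marks 1 TPM. Each family has 1 to 5 members above 5 TPM, or 6 for Htr, and points at the bottom edge are the 6 genes with no counts in either library and Chrne in replicate 1.

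Summed by transmitter, acetylcholine receptors came first at 166 and 173 TPM. Noradrenaline receptors followed at 84.8 and 78.6 TPM, serotonin receptors at 77.8 and 71.1 TPM, dopamine receptors at 69.5 and 62.3 TPM, cannabinoid receptors at 60.7 and 64.3 TPM and histamine receptors at 60.2 and 59.4 TPM. Dopamine and cannabinoid sums overlapped between the animals. The place of dopamine rested on the short noncoding Drd1 transcript described below: over protein-coding transcripts only, dopamine receptors summed to 53.2 and 51.9 TPM, below cannabinoid receptors at 57.1 and 58.4 TPM. By the rescaled second quantification dopamine receptors came last, at 49.5 and 47.0 TPM. Histamine receptors then had 58.0 and 56.9 TPM and overlapped cannabinoid receptors at 56.2 and 57.4 TPM. Summed by mechanism, the 17 receptors that couple to Gi or Go held 214 and 213 TPM. The 10 Gq-coupled receptors held 171 and 165 TPM, the 9 Gs-coupled receptors 82.9 and 75.0 TPM, and the 18 ion channel subunits 49.0 and 55.2 TPM. Htr5b was not assigned to a mechanism.

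**Figure D2:**
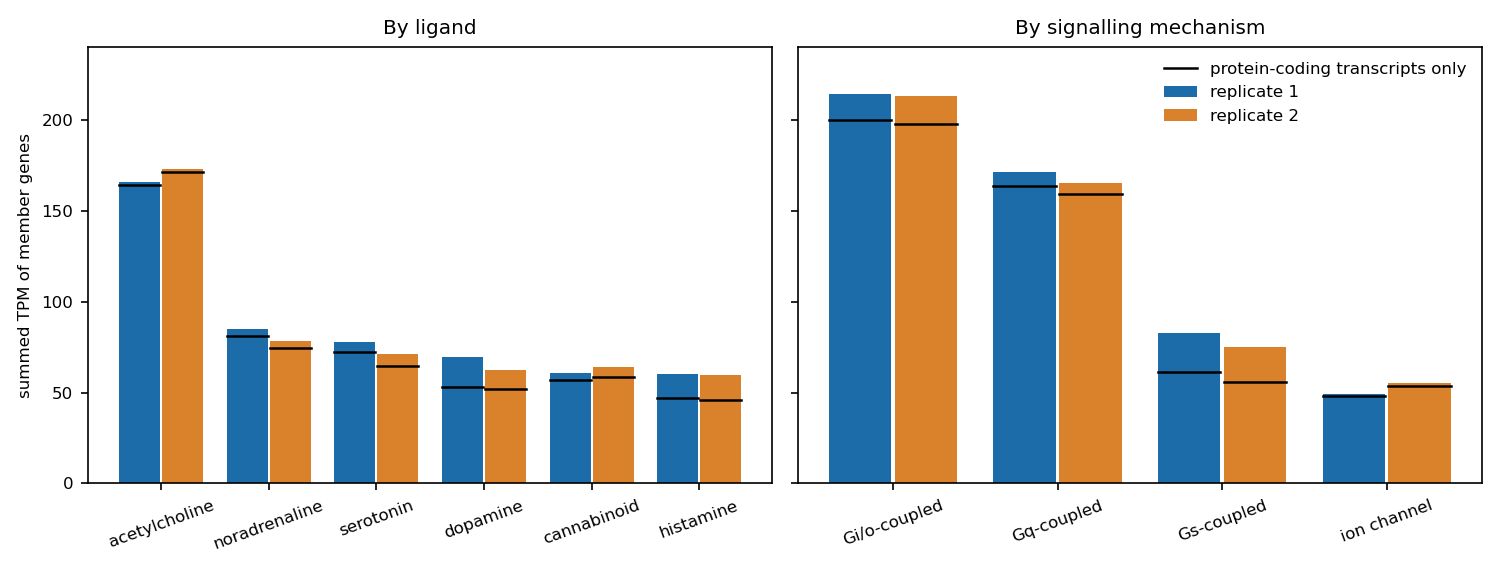
Summed TPM of the receptor genes by transmitter (left) and by signalling mechanism (right), with a bar for each animal from 0 (replicate 1 blue, replicate 2 orange) and a black line at the sum over protein-coding transcripts only. Acetylcholine stands highest by transmitter at 166 and 173 TPM and the Gi/o-coupled receptors highest by mechanism at 214 and 213 TPM. The black lines lie furthest below the bars for dopamine and histamine on the left and for the Gs-coupled receptors on the right.

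The muscarinic receptors, which carry the slow, G protein-coupled part of acetylcholine signalling, were the family with the highest sum, 119.8 and 121 TPM over 5 genes. Chrm1 (chr19:8663789-8683587, mm10), the Gq-coupled receptor that closes potassium channels of pyramidal neurons, had 63.3 and 62.0 TPM, or 62.6 ± 0.863, on 5032 and 5313 counts. This placed Chrm1 at rank 1751 of the protein-coding genes. Chrm4, the Gi-coupled receptor known for its high level in striatal neurons, had 26.4 and 26.6 TPM. Chrm3, coupled to Gq, had 22.2 and 24.3 TPM. Chrm2, the Gi-coupled receptor found on cholinergic terminals, had 6.86 and 7.32 TPM, and Chrm5, a Gq-coupled receptor best known from midbrain dopamine neurons, had 1.10 and 1.08 TPM. By the first quantification the order Chrm1, Chrm4, Chrm3, Chrm2, Chrm5 was the same in both animals, with no overlap between any neighbours. By the rescaled second quantification Chrm4, at 23.3 and 24.2 TPM, overlapped Chrm3 at 21.4 and 24.3 TPM, so the order of this pair is not settled.

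Of the 16 nicotinic subunit genes, 4 reached 1 TPM in both animals, all of them known from nicotinic receptors of brain. Chrna4 (chr2:181018380-181043546) had 17.0 and 19.8 TPM, and Chrnb2 (chr3:89746195-89764632) had 13.6 and 14.7 TPM. Their products assemble into the high-affinity nicotine receptor of brain. The exons of Chrnb2 share 1365 bases with the exons of Adar on the opposite strand, a gene of 5063 and 5080 counts, and how reads there were divided is not given in the sources used here. Chrna7, which forms channels of a single kind of subunit with high calcium flow, had 11.1 and 12.0 TPM. Chrna5, an accessory subunit, had 2.18 and 2.54 TPM. The order of these 4 genes did not overlap between the animals.

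The other 12 nicotinic genes lay below 1 TPM in both animals. Chrnb3, a subunit of receptors on dopamine neurons, had 0.58 and 0.77 TPM, and its neighbour Chrna6, which lies 3481 bases away on chromosome 8 and joins the same receptors, had 0.18 and 0.47 TPM on 9 and 25 counts. On chromosome 9 Chrna5, Chrna3 and Chrnb4 lie side by side with gaps of 2331 and 1591 bases. Of this cluster Chrna5 alone passed 1 TPM, whereas Chrna3 had 0.03 and 0.26 TPM on 2 and 16 counts, and Chrnb4 had 0.05 and 0.20 TPM on 3 and 14 counts. Both belong to the nicotinic receptor of autonomic ganglia and of the medial habenula. The 5 marker genes of thalamus and habenula summed to 28.3 and 25.9 TPM and 4 of them reached 1 TPM in both animals; Gpr151 was lowest at 0.34 and 0.37 TPM, and Tac2 had 7.08 and 5.98 TPM. Chrna2 had 0.23 and 0.15 TPM, and Chrna10, a subunit of inner ear hair cells, had 0.40 and 0.32 TPM. The muscle subunits were near or at 0: Chrnb1 had 0.41 and 0.56 TPM, Chrna1 0.08 and 0.09 TPM and Chrne 0 and 0.10 TPM on 0 and 1 count, with Chrnd and Chrng at 0 counts. The hair cell subunit Chrna9 had no counts either. By the second quantification, rescaled to the first over protein-coding genes, some of these low levels were more than 1.5 times as high. Chrna2 then had 0.636 and 0.566 TPM on 46.2 and 44.3 estimated counts, against 14 and 9 counts by the first. Chrnb4 had 0.158 and 0.304 TPM and Chrna1 0.166 and 0.246 TPM, and Chrne had 0.116 and 0.120 TPM on 1 and 3 counts.

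Chrna5 was split between forms. Chrna5-204 lacks exons of Chrna5-202, and its annotated coding sequence is 1089 bases long against 1401 bases. It held 59.8% and 50.5% of the gene by the first quantification and 61.6% and 53.4% by the second, but on 53.8 and 57.6 counts. The bounds the authors deposited for the level of Chrna5-202 reached down to 0.00037 and 0.0056 TPM, so its presence was not settled at this depth. Chrna7 was carried almost wholly by Chrna7-201, at 97.8% and 95.3%, and Chrnb2 by Chrnb2-201, at 99.7% and 99.3%.

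Genes that fold and tune nicotinic receptors summed to 489 and 516 TPM, against 45.9 and 51.9 TPM for the nicotinic receptor genes. All 8 of the list reached 1 TPM in both animals. The highest was Ly6h at 145.7 and 161.5 TPM, a membrane-anchored protein that restrains nicotinic receptors, and the lowest was Lypd6b at 3.74 and 4.72 TPM. None of the 8 differed by 1.5-fold between the animals.

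Cnr1 (chr4:33924593-33948831), the cannabinoid receptor of axon terminals, had 60.7 and 64.2 TPM, or 62.4 ± 2.52, on 5765 and 6436 counts. It overlapped Chrm1 between the animals at the level of the gene. Over protein-coding transcripts Cnr1 had 57.05 and 58.3 TPM, below Chrm1 at 63.25 and 62.03 TPM in both animals. By the rescaled second quantification Cnr1 was also the lower one, with 56.1 and 57.3 TPM against 60.04 and 62.46 TPM for Chrm1. Cnr2, the receptor of immune cells, had 1 and 4 counts, or 0.02 and 0.06 TPM, although microglial genes were detected and summed to 105 and 104 TPM over 5 markers. The second quantification gave Cnr2 7.71 and 11.2 estimated counts, or 0.100 and 0.134 TPM once rescaled. Genes of endocannabinoid synthesis, breakdown and signalling reached 1 TPM in 8 of 8 cases, with a sum of 379 and 395 TPM. Abhd12, a hydrolase, was highest at 139 and 153 TPM. Napepld, the enzyme that releases N-acylethanolamines, was lowest at 6.77 and 6.06 TPM. None of the 8 differed by 1.5-fold between the animals.

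Cnr1 was read from more than 1 annotated start, with the whole protein-coding region of 1419 bases in both coding forms. Cnr1-201, which starts at position 33924632 of chromosome 4, held 84.2% and 76.3% of the gene, 51.1 and 49.0 TPM. Cnr1-202, which starts at 33926202, held 9.86% and 14.5%, 5.98 and 9.34 TPM. By the second quantification Cnr1-202 held 15.3% and 24.0%, so its share was lower in replicate 1 by both, but the deposited bounds on its level, 4.17 to 7.85 and 6.82 to 11.4 TPM, overlapped. The remaining 5.94% and 9.20% belonged to Cnr1-203, which is not annotated as protein coding. Windows around the RefSeq start sites closest to both coding forms are given here from the plus strand of chr4 on GRCm38.p6, because they hold the starts of these forms. The RefSeq starts are at 33924644 and 33926380, and capitals mark the 50 bases from the start site onward.
Cnr1 window chr4:33924394-33924693: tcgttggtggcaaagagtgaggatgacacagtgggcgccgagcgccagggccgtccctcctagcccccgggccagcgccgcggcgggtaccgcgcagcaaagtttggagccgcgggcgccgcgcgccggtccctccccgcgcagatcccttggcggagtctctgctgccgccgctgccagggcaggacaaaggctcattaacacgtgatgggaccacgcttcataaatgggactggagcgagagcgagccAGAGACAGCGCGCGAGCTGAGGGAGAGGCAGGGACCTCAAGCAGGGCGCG
Cnr1 window chr4:33926130-33926429: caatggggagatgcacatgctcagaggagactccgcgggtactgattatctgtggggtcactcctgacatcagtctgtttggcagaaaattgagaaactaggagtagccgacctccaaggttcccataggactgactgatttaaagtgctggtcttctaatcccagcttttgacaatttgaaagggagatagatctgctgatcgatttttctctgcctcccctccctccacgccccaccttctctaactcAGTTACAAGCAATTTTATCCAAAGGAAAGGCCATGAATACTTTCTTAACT
The upstream window was 69.0% G and C, and the downstream one 46.3%. Neither held the TATA box letters TATAAA, the letters CCAAT or the GC box letters GGGCGG on either strand. The window of a further RefSeq start of Cnr1, at position 33924264, is not shown: it held GGGCGG 5 times, counted on both strands, and was 76.3% G and C. Over the 54 RefSeq windows found for 42 of the receptor genes, GGGCGG occurred in 29 (53.7%), against 35.7% of 32851 windows of all genes. TATAAA occurred in 2 (3.70%) against 13.6%, and CCAAT in 13 (24.1%) against 37.4%. The median window was 59.2% G and C among the receptors and 52.7% among all genes. These are descriptions of the letters in the windows and not of binding.

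The dopamine receptors divided into a pair of well-expressed genes and 3 low ones. Drd1 (chr13:54051183-54055705), the Gs-coupled receptor of the direct-pathway neurons of striatum and of cortical neurons, had 41.7 and 36.4 TPM on 1622 and 1783 counts. Drd2 (chr9:49340627-49408177), the Gi-coupled receptor that is also the autoreceptor of dopamine neurons, had 25.1 and 23.6 TPM. The Gs-coupled Drd5 had 1.30 and 1.16 TPM and the Gi-coupled Drd3 had 1.27 and 0.84 TPM, and these overlapped. Drd4, a Gi-coupled receptor known from frontal cortex and retina, had 0.15 and 0.23 TPM on 2 and 6 counts. Of this, 0.15 and 0.16 TPM belonged to Drd4-202, a form with a retained intron, and over protein-coding transcripts Drd4 had 0 and 0.07 TPM. Drd1 and Drd2 stood beside markers of striatal projection neurons: Ppp1r1b, which encodes a phosphatase inhibitor downstream of Drd1, had 259 and 287 TPM, and Adora2a, a partner of Drd2 in indirect-pathway neurons, had 33.1 and 36.5 TPM. All 8 genes of that list were detected and none differed by 1.5-fold between the animals. The part of striatal cells in the levels of Drd1, Drd2 and Chrm4 was not tested.

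The Drd1 level depended on a short transcript. Of the 41.7 and 36.4 TPM, 16.2 and 10.2 TPM belonged to Drd1-203, a 405-base form annotated as a processed transcript, on only 86.9 and 59.3 counts. Its deposited bounds were 11.2 to 19.7 and 6.31 to 13.6 TPM and overlapped. The coding form Drd1-201 had 1535 and 1724 counts and 25.5 and 26.3 TPM, so that its difference between the animals ran the other way from that of the gene sum. The second quantification gave Drd1-203 nothing and placed 100% and 85.8% of the gene in Drd1-202, whose coding sequence is 1317 bases against 1338 bases in Drd1-201. Over coding transcripts Drd1 was thus close to Drd2 at 25.1 and 23.6 TPM and to Chrm4 at 26.4 and 26.6 TPM. Drd2 has a single transcript in the annotation used here, so its long and short splice forms were not separated.

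Among the alpha adrenergic receptors, 5 of 6 genes stood above 5 TPM. The Gq-coupled genes were Adra1d at 20.9 and 17.6 TPM, Adra1b at 11.4 and 13.9 TPM and Adra1a at 11.1 and 11.2 TPM. Of the Gi-coupled genes, Adra2c had 13.5 and 12.3 TPM, Adra2a, the main autoreceptor of noradrenaline neurons, 6.88 and 7.30 TPM, and Adra2b 0.44 and 0.45 TPM. Neighbours in level did not overlap, except for Adra2c and Adra1b. The Adra1b level includes 3.21 and 2.60 TPM of a form that is not annotated as protein coding. It was given the same counts as a coding form in both libraries and by both quantifications, and both forms have 3047 bases. Without it Adra1b had 8.22 and 11.3 TPM and overlapped Adra1a at 10.8 and 10.5 TPM. The division of reads between these forms is not settled, so this coding level and the overlap are uncertain.

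Of the beta adrenergic genes, which are coupled to Gs, Adrb1 (chr19:56722199-56733113) had the highest level, 19.0 and 14.3 TPM, or 16.7 ± 3.32. Adrb3, the receptor of fat cells, had 0.55 and 0.25 TPM on 21 and 13 counts. An antisense gene, Gm45470, shares 839 exon bases with Adrb3 and had 38 and 67 counts, so the Adrb3 value is uncertain.

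Of the 14 serotonin receptor genes, 11 reached 1 TPM in both animals, and no gene dominated: the highest, Htr2c, held 23.5% of their sum. Of the Gq-coupled receptors, Htr2c had 18.5 and 16.4 TPM, or 17.5 ± 1.45, and Htr2a, the target of psychedelic drugs on pyramidal neurons, had 11.1 and 9.42 TPM. Htr2b, the receptor of heart valves and gut, had no counts. Of the Gi-coupled receptors, Htr1b, found on axon terminals, had 14.2 and 7.87 TPM. Htr5a had 5.55 and 5.94 TPM, and Htr1a, the receptor that hyperpolarises neurons, had 4.37 and 6.61 TPM. Htr1f had 3.74 and 3.35 TPM and Htr1d 3.23 and 2.95 TPM. Of the Htr1d level, 1.03 and 0.61 TPM belonged to Htr1d-204, a 363-base processed transcript, on 4.78 and 3.06 counts. The second quantification gave Htr1d-204 nothing. Over protein-coding transcripts Htr1d had 2.19 and 2.35 TPM, so its difference between the animals then ran the other way. The Gs-coupled Htr7 had 5.29 and 6.76 TPM, Htr4 4.54 and 4.47 TPM and Htr6 2.65 and 3.58 TPM. The channel subunit Htr3a, known from a class of cortical interneurons, had 3.16 and 3.30 TPM. Its partner Htr3b, 23908 bases away on chromosome 9, had no counts by the first quantification. Htr5b had 1.46 and 0.43 TPM on 47 and 15 counts. Of the 13 neighbouring pairs in the order of levels, 6 did not overlap between animals, and Htr7, Htr5a and Htr1a all overlapped with the next.

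Htr2c (chrX:146962513-147197277) was read as a full form and a truncated form. Exon 5 of Htr2c-201 is given here from the plus strand of chrX:147169570-147169770 of mm10 because the forms differ within it. Capitals mark its last 95 bases, which Htr2c-207 lacks through an earlier splice donor.
Htr2c exon 5: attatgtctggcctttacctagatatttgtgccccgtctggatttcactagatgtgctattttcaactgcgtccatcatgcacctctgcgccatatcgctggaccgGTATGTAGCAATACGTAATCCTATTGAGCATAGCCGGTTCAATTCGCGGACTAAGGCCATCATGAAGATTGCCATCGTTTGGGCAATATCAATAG
The capitals hold the stretch ATACGTAATCCTATT, at chrX:147169686-147169700, in which ADAR enzymes are known to edit adenosines of this mRNA to inosine. The truncated form therefore lacks the edited stretch, and its annotated coding sequence is 516 bases against 1377 bases. Htr2c-201 had 10.5 TPM (the authors' bounds 7.29 to 11.7) in replicate 1 and 12.5 TPM (9.45 to 13.4) in replicate 2. Htr2c-207 had 4.86 TPM (2.78 to 6.61) and 2.23 TPM (0.75 to 4.01), on 389 and 194 counts. Its share of both forms together was 31.6% in replicate 1 and 15.1% in replicate 2, and 25.6% and 15.6% by the second quantification. The truncated form was thus a larger share in replicate 1 by both, but the authors' bounds on its level overlapped between the animals. Htr2c is known for a high level in choroid plexus, and all 7 tested markers of that tissue were at least 1.5-fold higher in replicate 1, with Ttr at 711 and 2.40 TPM. The part of choroid plexus in the Htr2c values was not tested. The whole gene had 1355 and 1368 counts, a log2 ratio of 0.15.

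Shorter stretches of sequence separated the forms of Htr3a and of the histamine receptor Hrh3, and both are shown from the minus strand of mm10, on which these genes lie. In Htr3a, capitals mark 18 bases, 6 codons, that belong to Htr3a-201 and not to Htr3a-202. In Hrh3, capitals mark 96 bases, 32 codons, that are kept in Hrh3-201 and spliced out in Hrh3-203.
Htr3a at chr9:48899949-48900008: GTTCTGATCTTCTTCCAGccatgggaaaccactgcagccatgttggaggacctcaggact
Hrh3 at chr2:180100902-180101027: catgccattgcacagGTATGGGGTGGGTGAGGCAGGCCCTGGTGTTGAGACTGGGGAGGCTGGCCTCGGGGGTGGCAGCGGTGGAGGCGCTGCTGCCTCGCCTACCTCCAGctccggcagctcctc
The Htr3a form without the added codons led in both animals, at 100% and 89.1% of the gene, and at 77.3% and 55.6% by the second quantification. The form with them had 0 and 13.7 counts by the first quantification. Htr3a shares were therefore not settled at this depth. For Hrh3 both quantifications gave 0 TPM to the spliced form Hrh3-203 in both animals, though its deposited bounds reached up to 0.66 and 0.63 TPM. The full-length Hrh3-201 held 76.2% and 78.9% of the gene by the first quantification and 70.2% and 74.6% by the second.

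Histamine receptors were led by Hrh3 (chr2:180099465-180104488), the Gi-coupled receptor on terminals that limits the release of histamine and other transmitters, with 41.7 and 43.7 TPM, or 42.7 ± 1.38. Of this, 9.37 and 9.02 TPM came from forms not annotated as protein coding, a retained intron (Hrh3-206) and a target of nonsense-mediated decay (Hrh3-207). Hrh1, the Gq-coupled receptor that sedating antihistamines block, had 11.6 and 9.00 TPM. The Gs-coupled Hrh2 had 6.89 and 6.75 TPM, and Hrh4, the receptor of blood cells, had no counts. No neighbours overlapped in this family. By the first quantification and on average over the animals, Hrh2 was the single gene among 24 whose leading transcript was not annotated as protein coding: Hrh2-203, a target of nonsense-mediated decay, held 57.8% and 64.1% of the gene, and 62.3% and 65.8% by the second quantification. Over coding transcripts Hrh2 had 2.91 and 2.42 TPM.

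The 24 genes counted here had more than 1 annotated transcript and a mean of at least 1 TPM. In 20 of them both quantifications named the same leading transcript on average over the animals, and in 19 they did so in each animal as well. The leading transcript differed for Drd1, described above, and for Hrh1, Htr7 and Htr4. Hrh1-203 held 68.4% and 61.2% of Hrh1 by the first quantification and 37.1% and 19.2% by the second, where Hrh1-202 held 37.7% and 35.0%. For Htr7, forms not annotated as protein coding took 22.6% and 59.7% by the first and 60.8% and 64.2% by the second, so the coding level of Htr7, 4.09 and 2.73 TPM by the first, was uncertain. Htr4-204 held 74.7% and 78.1% of Htr4 by the first quantification, on 65.9 and 73.8 counts, and 32.6% and 17.0% by the second. Among the named genes, 26 of 26 log2 ratios between the animals were within their counting interval when taken from the second quantification. Both quantifications used the same libraries and share their counting error, so this is no separate test of the ratios.

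**Figure D3:**
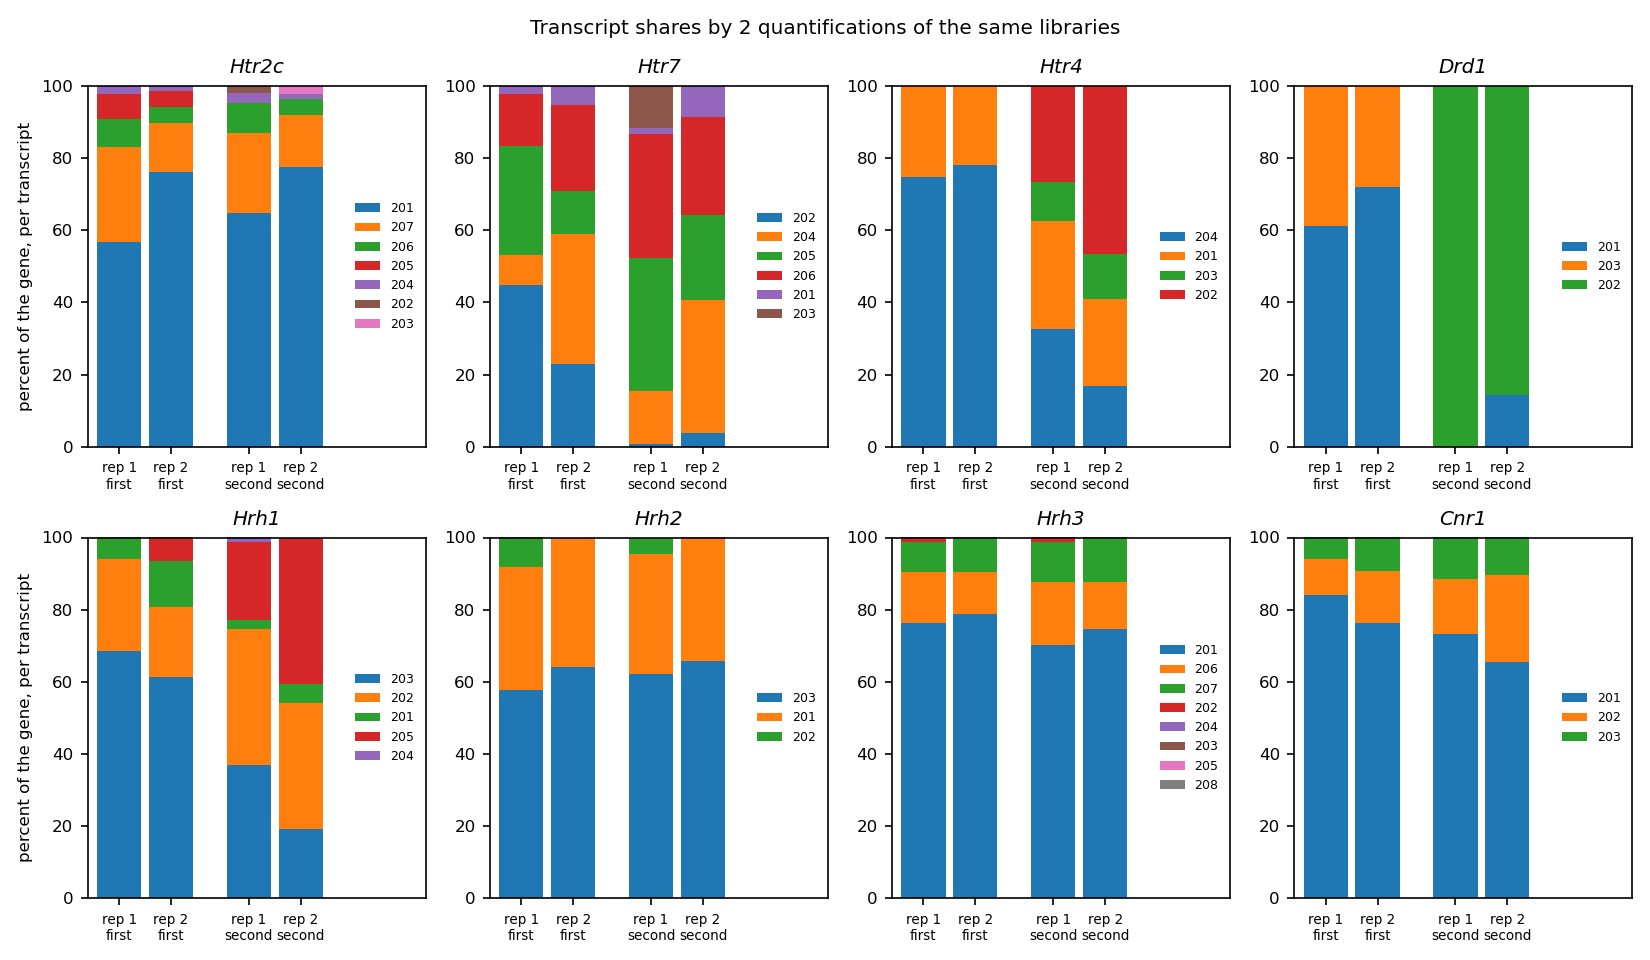
Share of each annotated transcript in its gene, in percent, for 8 receptor genes; bars on the left of each panel are replicates 1 and 2 by the first quantification and bars on the right the same libraries by the second, and colours are transcript numbers. Htr2c, Hrh2, Hrh3 and Cnr1 keep their leading transcript in all 4 bars, whereas Drd1, Htr7, Htr4 and Hrh1 do not.

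Receptor transcripts were present largely without those of the enzymes and transporters of the monoamine neurons. Of 8 genes for the synthesis and transport of dopamine and noradrenaline, 2 reached 1 TPM in both animals. Th, the rate-limiting enzyme, had 1.18 and 2.27 TPM on 36 and 75 counts, and Ddc, the decarboxylase shared with serotonin neurons, was highest at 4.74 and 3.38 TPM. The noradrenaline transporter Slc6a2 was lowest at 0.02 and 0.05 TPM. Of 3 genes for serotonin none reached 1 TPM: Tph2, the neuronal synthetic enzyme, had 0.32 and 0.35 TPM and the transporter Slc6a4 had 0.04 and 0 TPM. For histamine, the synthetic enzyme Hdc had 0.45 and 0.43 TPM, whereas Hnmt, which inactivates histamine, had 12.1 and 14.6 TPM. All 5 genes of acetylcholine were above 1 TPM, from the vesicular transporter Slc18a3 at 1.35 and 1.42 TPM to the esterase Ache at 26.9 and 31.0 TPM, and Chat, the synthetic enzyme, had 2.41 and 2.00 TPM. All 5 genes for the breakdown and low-affinity uptake of monoamines were above 1 TPM, with Slc22a3 lowest at 1.04 and 1.62 TPM. Th and Slc22a3 were lower in replicate 1 past 1.5-fold, at -0.86 and -0.60 on the log2 scale. The transporter Slc29a4 was higher in replicate 1 past 1.5-fold, with 6.74 and 4.27 TPM and a log2 ratio of 0.71. Receptor kinases and arrestins, which switch these receptors off, reached 1 TPM in 7 of 7 cases, with Grk2 highest at 91.6 and 91.2 TPM and Grk4 lowest at 2.02 and 2.55 TPM.

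Receptors for the fast transmitters and their metabotropic counterparts were set beside these genes for scale. The 8 metabotropic glutamate receptors had a median of 20.5 TPM, with 7 of 8 at 1 TPM in both animals and a sum of 245 and 266 TPM. The 16 GABA-A receptor subunits had a median of 39.2 TPM, with 12 of 16 at 1 TPM and a sum of 787 and 823 TPM. The 55 receptors of the modulators, with a median of 3.23 TPM, summed to 519 and 509 TPM, and their highest members, Chrm1 and Cnr1, lay below Grm5 at 85.1 and 97.8 TPM. The difference in medians is a description, since sets of genes are not replicates.

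Between the animals the receptors were about as close to each other as genes in general. A ratio of CPM, replicate 1 over replicate 2, was formed for genes whose normalised counts averaged 50 or more, with no p-value since each animal is 1 sample. Of the 33 receptors tested, 1 passed (3.03%), in a background of 508 of 14172 genes (3.58%) and of 345 of 12805 protein-coding genes (2.69%). The median distance from equality was 1.10-fold for the receptors and 1.08-fold for all genes tested, and 16 of the 33 receptors were higher in replicate 1. The gene that passed was Htr1b (chr9:81628291-81633828), with 933 and 616 counts. It was 1.70-fold higher in replicate 1, with an exact binomial counting interval of 1.53 to 1.89, a log2 ratio of 0.76 that the second quantification gave as 0.76 too. The antisense gene D430036J16Rik shares 852 exon bases with Htr1b and had 76 and 88 counts. The Htr1b values are uncertain to that extent, because no source used here says if strand was used in counting. Of 9 immediate early genes, which report recent neuronal activity, 8 were at least 1.5-fold higher in replicate 1, and Arc, the furthest apart of them, had 163 and 27.8 TPM. Choroid plexus markers were higher in replicate 1 as well, and their part and that of neuronal activity in the Htr1b value were not tested.

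No other tested receptor passed 1.5-fold, and none of the 33 passed 2-fold, which 0.861% of all genes tested did. Htr1a was next, in the opposite direction, with 337 and 555 counts and a ratio of 0.683 (0.594 to 0.782), a log2 ratio of -0.55. Chrnb3 had 41 and 66 counts and a log2 ratio of -0.50, which the second quantification gave as -0.25. The interval of Chrnb3, 0.461 to 1.05, includes equality. Adrb1 had 942 and 757 counts and was 1.40-fold higher in replicate 1 (1.27 to 1.54). Adra1d, Htr2a and Hrh1 followed, with log2 ratios of 0.30, 0.28 and 0.27. Among the highest genes, Cnr1 had a log2 ratio of 0.01, Chrm1 0.09, Hrh3 -0.05 and Drd1 0.03. With scaling to the spike-ins, under which the median of all genes moved by 0.07, Cnr1 had 0.08, Chrm1 0.16, Hrh3 0.02 and Drd1 0.10, so that Hrh3 changed sign. Receptors below the count limit were not tested, and those named next were picked because their interval leaves out equality. The same held for some tested receptors within 1.5-fold, such as Chrm1 at 1.02 to 1.11 and Chrm3 at 0.833 to 0.959. It therefore does not set the picked genes apart, and how many of all genes meet it was not counted. With no filter on counts, 10 of 55 receptors and 12.5% of all genes passed 1.5-fold. The share of all genes is taken over 55536 entries that include genes with no counts, which cannot pass, so the shares are not directly comparable. Of those picked, Htr5b was higher in replicate 1, with an interval of 1.93-fold to 6.78-fold on 47 and 15 counts. Chrna3 and Chrnb4 were lower in replicate 1, with intervals of 0.0157 to 0.597 and 0.0443 to 0.862 on 2 and 16 and on 3 and 14 counts. For Chrnb4 the log2 ratio was -1.55 by the first quantification and -0.80 by the second. Chrna6 was lower in replicate 1 too, with an interval of 0.166 to 0.895 on 9 and 25 counts. These intervals cover counting error only.

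**Figure D4:**
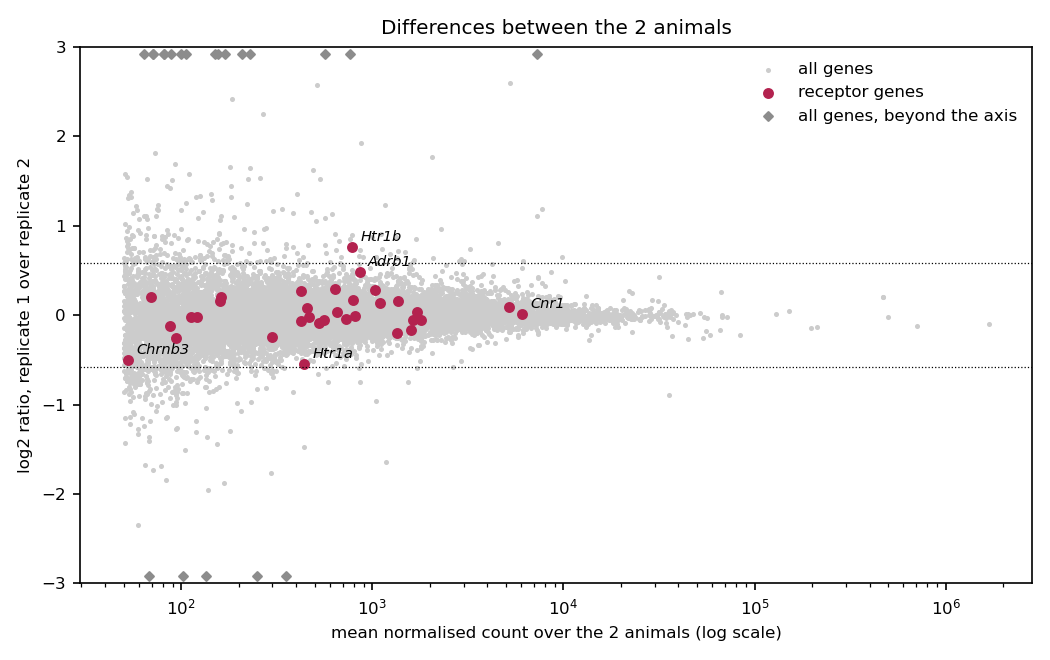
Log2 ratio of CPM, replicate 1 over replicate 2, against the mean normalised count (log scale) for 14172 genes (grey) and the 33 receptor genes among them (red); dotted lines mark 1.5-fold and diamonds at the edges are genes beyond a log2 ratio of 3 in either direction, 16 higher in replicate 1 and 5 higher in replicate 2. Htr1b alone of the receptors lies outside the dotted lines, at 0.76.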

How the data were processed

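Total RNA of left cerebral cortex was measured in 2 libraries, 1 per animal and 1 group. The authors' gene and transcript tables hold, per the file headers, expected counts, TPM, FPKM (not used) and each transcript's percent of its gene (first quantification, from transcriptome alignments on mm10 with GENCODE M21). The authors also deposited a transcript table of estimated counts and TPM from the reads themselves (second quantification). The sources used here name no program, setting or use of strand, so genes that overlap on opposite strands are uncertain, and any loss of Cast reads against mm10 was not analysed here. Library sizes leave out ERCC, tRNA and 356 rRNA entries. Expected counts were rounded and scaled by TMM (edgeR 4.0.16, R 4.3.3), and log2 ratios use CPM with a prior count of 2. Genes under a mean of 50 normalised counts were not tested. Counting intervals are exact 95% binomial intervals. The calculation was tested on simulated data. Sequences are from GENCODE M21 transcripts and RefSeq windows on GRCm38.p6. No p-value is given, since 1 group of 2 animals allows no comparison of conditions.

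The members and gene lists were chosen with earlier results of these data known. By the rule for named genes, values are given for members with a mean of at least 5 TPM, the lowest of each family, those past 1.5-fold, and those whose leading transcript differs between quantifications, and for the highest and lowest gene of each pathway list and those past 1.5-fold. Values that this rule would add for a few genes are not reported here. Marker lists are given mainly by their sums. Other genes named were chosen after their values were seen. Coupling and transmitter classes are textbook knowledge. The alternatives were size factors of DESeq2 1.42.0, scaling to the ERCC spike-ins, other filters, folds and prior counts, the second quantification, and each animal alone. Python 3.11.15, pandas 2.3.3, numpy 2.4.6, scipy 1.17.1 and matplotlib 3.10.9 were used.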

Additional observations from a re-analysis of the deposited data

How the results depend on the processing

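No paired analysis was possible because there is 1 group. The number of receptors 1.5-fold apart between the animals was 1 (Htr1b) under DESeq2 size factors, spike-in scaling, a prior count of 0.5 and the second quantification. It was 6 of 43 tested with a mean of at least 10 counts, where 10.5% of all genes passed. These 6 were Adrb3, Chrna2, Chrna6, Drd3, Htr1b and Htr5b. The number was 10 of 55 with no filter and 0 at 2-fold. With no filter the share of all genes was 12.5%, taken over 55536 entries that include genes with no counts, which cannot pass. Leaving out 1 animal leaves no ratio. Spike-in scaling shifted the median log2 ratio of all genes by 0.07, and of 26 named log2 ratios 2, of Cnr1 and Chrm1, moved out of their counting intervals, to 0.08 and 0.16. The number of receptors at 1 TPM was 34 without replicate 1, 36 without replicate 2, 36 at 0.5 TPM, 31 at 2 TPM and 34 by the second quantification. The number of genes with the same leading transcript by both quantifications was 21 without replicate 1 and 20 without replicate 2. Restriction to protein-coding transcripts, and rescaling of the second quantification, were chosen after seeing the data. Of 34 named levels, 15 moved by more than the SD with the second quantification, 19 once it was rescaled to the same protein-coding sum and 9 with coding transcripts only. Of 24 leading shares, 18 moved. Family sums moved in 4 of 8 families with the second quantification and 5 of 8 with coding transcripts, for dopamine to an average of 54.0 and 52.6 TPM. TPM of the second quantification sums to 464368 and 661842 over protein-coding genes, so its levels were not compared between the animals. At this depth, members with few counts, such as Chrna3 and Chrnb4, are placed only roughly.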
